A study of Mus musculus with 6 samples.

Results

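Gluconeogenesis genes of the mouse liver were followed, 9 of the 54532 genes in the deposited table, picked by gene symbol for their place in the pathway. They are 6 genes of enzymes and a transporter (Pcx, Pck1, Pck2, Fbp1, G6pc and Slc37a4) and 3 genes of transcriptional regulators (Ppargc1a, Foxo1 and Crtc2). The study sequenced RNA of whole liver from mice lacking G3bp1 in hepatocytes (HKO, 3 libraries) and from floxed litter controls with the gene intact (Flox, 3 libraries), and asked how G3BP1, an RNA-binding protein of stress granules, acts in fatty liver with inflammation. Mice of both groups ate a high-fat diet for 12 weeks from the age of 6 weeks, so every value below, controls included, is from liver under that diet. Not given in the sources used here were the Cre driver, the deleted exon and whether food was withheld before the liver was taken. Nothing in the labels says that the 3 libraries of a group are 3 animals, and the p-values therefore speak only of the spread among these samples, possibly a technical one.

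Gluconeogenesis makes new glucose from lactate, alanine, other amino acids and glycerol, and the liver is its main site during fasting. Pyruvate is carboxylated to oxaloacetate in the mitochondrion and turned into phosphoenolpyruvate, which runs back up the shared steps of glycolysis to fructose 1,6-bisphosphate; separate enzymes then remove both phosphates to release glucose. Glucagon raises the transcription of the enzymes through cyclic AMP, the factor CREB and its coactivators, while insulin lowers it by driving FOXO1 out of the nucleus.

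The cyclic AMP and FOXO routes act at gene promoters, so the bases before the starts of Pck1, G6pc and Ppargc1a are shown. Shared variation over the libraries did not single these genes out (values below). Pck1 with G6pc had a Pearson r of 0.59, below Foxo1 with G6pc (0.65) and Foxo1 with Ppargc1a (0.69). Each run holds the 250 bases before the RefSeq start on GRCm38.p6, in the direction of the gene: chr2:173152823-173153072 on the plus strand for Pck1, chr11:101367466-101367715 on the plus strand for G6pc, and chr5:51567726-51567975 on the minus strand for Ppargc1a. Capitals mark matches, on either strand, to the short form of the cyclic AMP response element (TGACG), the FOXO core (TGTTT) and the TATA box (TATAAA).
Pck1: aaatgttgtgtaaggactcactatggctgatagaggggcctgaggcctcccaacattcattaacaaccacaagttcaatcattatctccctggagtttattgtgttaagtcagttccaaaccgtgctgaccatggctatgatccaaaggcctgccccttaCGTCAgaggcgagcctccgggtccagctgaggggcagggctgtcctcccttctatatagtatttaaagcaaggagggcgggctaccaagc
G6pc: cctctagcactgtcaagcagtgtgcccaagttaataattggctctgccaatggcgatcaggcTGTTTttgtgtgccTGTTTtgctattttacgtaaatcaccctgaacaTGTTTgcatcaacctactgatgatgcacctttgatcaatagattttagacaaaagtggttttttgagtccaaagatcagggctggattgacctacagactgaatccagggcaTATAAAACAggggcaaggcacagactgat
Ppargc1a: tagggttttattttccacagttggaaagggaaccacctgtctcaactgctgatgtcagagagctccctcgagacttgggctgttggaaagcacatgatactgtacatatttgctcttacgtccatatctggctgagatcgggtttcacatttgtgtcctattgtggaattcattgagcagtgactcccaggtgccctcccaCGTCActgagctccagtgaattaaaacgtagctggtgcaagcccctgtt

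Pck1 held 1 match to TGACG, at -90 to -86 from the start, and Ppargc1a held 1 at -49 to -45, both on the opposite strand. G6pc held none of these but 4 matches to TGTTT: on its own strand from -188, -174 and -141, and on the opposite strand at -25 to -21, where the match overlaps the TATA box at -29 to -24. Of 32851 RefSeq windows of the same length from 27025 genes, 17.77% held TGACG, 46.4% held TGTTT and 12.37% held TATAAA, so single matches are common and are descriptions of letters, not sites of binding. The full element TGACGTCA (1.55% of windows) and the longer forkhead form TGTTTAC (3.17%) were in no window of these genes. CCAAT, in 33.85% of windows, was searched as well. Among the other genes, TGACG matched in 2 of the 3 windows of Slc37a4, which overlap each other, and TGTTT in those of Pck2, Foxo1 and Slc37a4. A promoter entry was matched for 8 of the 9 genes, with 11 windows in all; Crtc2 is named only. The gene start of the deposited table lies upstream of the RefSeq start for Pck1 (173153048) and G6pc (101367561), inside the windows shown.

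**Figure D1:**
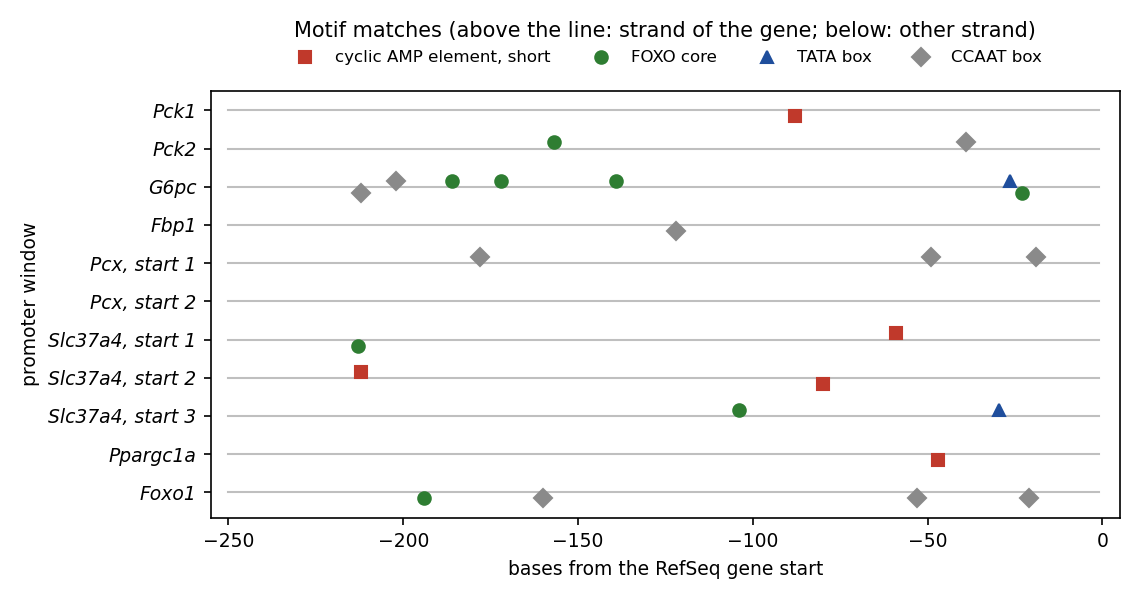
Matches to 4 short motifs in the 250 bases before the RefSeq starts of 8 gluconeogenesis genes (11 windows); the horizontal axis is the distance from the start in bases, and symbols above or below a line lie on the gene's own or the opposite strand. G6pc carried 4 FOXO core matches and Pck1 and Ppargc1a 1 cyclic AMP element each.

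Across the 6 libraries, 15804115 to 17954066 reads were assigned to genes. G3bp1 was at 8.46, 8.46 and 9.10 FPKM (fragments scaled to gene length and library size) in Flox 1, 2 and 3 and at 4.66, 4.27 and 4.44 in HKO 1, 2 and 3, with a log2 fold change of -0.83 (SE 0.0879, limma adjusted p = 0.110). It passed with voom on recovered reads (-0.96, adjusted p = 0.037) and with array weights in limma (-0.81, adjusted p = 0.0275). A near-identical copy of G3bp1 (98% identity) makes its level uncertain, and reads from other cell types and from exons left in place cannot be told apart here. On the first principal component (33.6% of the variance), Flox 3 at 14.1 lay with HKO 2 at 13.8 and HKO 3 at 14.5. Flox 1 (-14.9) and Flox 2 (-23.5) lay apart from these, with HKO 1 between at -4. On the second component (23.8%), Flox 3 (-18.7) lay with HKO 1 (-15.8). There Flox 1 (3), Flox 2 (5.3), HKO 2 (12.6) and HKO 3 (13.6) were on the other side of 0. Values without Flox 3 are given where it decided a direction. Summed hepatocyte markers reached 44600 to 46200 FPKM in Flox and 37700 to 47400 in HKO and were present in every library. All 13 Kupffer cell markers (resident liver macrophages) had a log2 difference above 0, with sums of 151 to 279 FPKM in Flox and 228 to 372 in HKO; their part in the values below was not tested. In whole tissue, fewer cells of a type and less RNA per cell cannot be told apart. Of 11856 genes tested with limma, 1 passed an adjusted p of 0.05 (0.00843%), the predicted gene Gm12411 (named after its value was seen), at a log2 difference of -1.89 (adjusted p = 0.0211).

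None of the 9 gluconeogenesis genes passed, with adjusted p-values of 0.648 to 0.999 in limma, and voom on recovered reads gave 0 of 9 as well. At an unadjusted p under 0.05, 1 of the 9 (Pck2) was found, beside 7.62% of all genes tested. The fitted log2 difference was below 0 for 4 genes (Fbp1, G6pc, Pcx and Pck2) and above it for 5; with TPM, where the median of all genes moved by 0.15, it was below 0 for 1 (Pck2). The groups of libraries did not overlap for 1 of the 9, again Pck2, beside 13.3% of all genes in either direction and 7.21% with every HKO library below every Flox library. The filter asked for at least 0.5 FPKM in at least 3 libraries: 8 genes met that level in all 6, and Pck2 met it in Flox only, so it could enter the test only by being higher there.

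**Figure D2:**
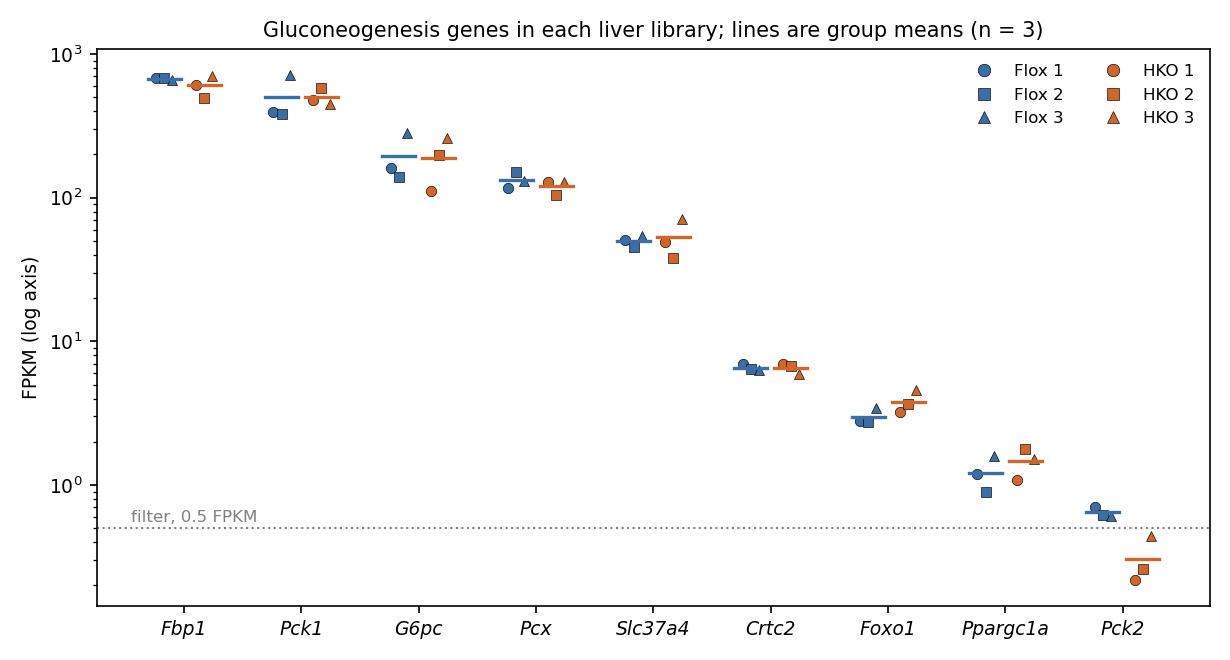
FPKM (log axis) of 9 gluconeogenesis genes in each of 6 liver libraries, blue for Flox and orange for HKO, with lines at the group means (n = 3) and a dotted line at the 0.5 FPKM filter. Only Pck2 has all HKO points (0.217 to 0.442) below all Flox points (0.610 to 0.700); the other genes overlap.

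Per length, 5 of the enzyme and transporter genes were abundant and the 3 regulators, with Pck2, were scarce. The order by mean FPKM over 6 libraries was Fbp1, Pck1, G6pc, Pcx, Slc37a4, Crtc2, Foxo1, Ppargc1a and Pck2. Fbp1 and Pck1 overlapped in their ranges, with Fbp1 higher in 4 of 6 libraries, and so did G6pc and Pcx, with G6pc higher in 4 of 6. Every other neighbour in the order was separated by ranges that did not overlap and held in 6 of 6 libraries. The 9 genes had no near-identical copy elsewhere (none at 97% identity over 80% of a transcript), and all are protein-coding.

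Pcx (chr19:4510472-4621752) encodes pyruvate carboxylase, the mitochondrial enzyme that makes oxaloacetate from pyruvate. It measured 117, 150 and 130 FPKM in Flox 1, 2 and 3 and 129, 104 and 129 in HKO 1, 2 and 3. Flox 2 was the highest and HKO 2 the lowest, and the groups overlapped. Means were 133 ± 16.9 in Flox and 121 ± 14.5 in HKO (SD, n = 3 each; 8056 to 11127 reads per library). The log2 fold change was -0.13 (SE 0.149, 95% interval -0.48 to 0.22, limma adjusted p = 0.798), so the interval covers folds from 0.716 to 1.16. It was -0.03 without HKO 2 and -0.22 without Flox 1.

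Pck1 (chr2:173153048-173159273) encodes the cytosolic phosphoenolpyruvate carboxykinase, which turns oxaloacetate into phosphoenolpyruvate and is the classic transcriptional target of glucagon and insulin. Its level was 396, 385 and 719 FPKM in Flox and 477, 578 and 451 in HKO. Flox 3 stood above every other library, and the 3 HKO libraries lay between the Flox values. The means were nearly equal at 500 ± 190 and 502 ± 66.9 FPKM (SD, n = 3 each; 19624 to 41460 reads). Its log2 fold change of 0.06 (SE 0.259, interval -0.55 to 0.67, limma adjusted p = 0.952) allows folds of 0.684 to 1.59. Without Flox 3 the log2 difference was 0.35, and without Flox 1, Flox 2 or HKO 2 it was -0.08, -0.10 and -0.04.

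Pck2 (chr14:55540266-55551242), the mitochondrial form of the same enzyme, was the least abundant of the 9. It stood at 0.700, 0.621 and 0.610 FPKM in Flox, from 84, 72 and 80 reads. In HKO it stood at 0.217, 0.261 and 0.442 FPKM, from 30, 34 and 64 reads. Every HKO library was below every Flox library, and HKO 3 came nearest. The means of 0.644 ± 0.0492 and 0.307 ± 0.120 FPKM (SD, n = 3 each) differ by -52.4% on the linear scale. The exact permutation test gave p = 0.1, the smallest that 3 against 3 libraries allow. Because Pck2 passed the filter only through its Flox libraries, neither this p nor the fit that follows is independent support for a difference. In limma the log2(FPKM + 1) fold change was -0.33 (SE 0.105, interval -0.58 to -0.09) and the adjusted p was 0.648. At so low a level the size depends on the pseudocount: the log2 fold change was -0.91 with 0.1 FPKM added, and -1.12 by voom on recovered reads. Its adjusted p over all alternatives tried was 0.133 to 0.989. The deposited length of Pck2, 7806 bases, counts all of its annotated exon bases, which lowers its FPKM against genes with short models.

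Fbp1 (chr13:62864753-62888282) encodes fructose-1,6-bisphosphatase, which removes the phosphate that glycolysis adds in its committed step. Values were 681, 675 and 654 FPKM in Flox and 611, 495 and 707 in HKO. The Flox libraries were tightly grouped, while HKO spread to both sides of them, with HKO 2 lowest and HKO 3 highest. Means were 670 ± 14.3 and 604 ± 106 FPKM (SD, n = 3 each; 14063 to 22311 reads). The log2 fold change was -0.16 (SE 0.159, interval -0.54 to 0.21, limma adjusted p = 0.768), and it was -0.03 without HKO 2 and -0.28 without HKO 3.

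G6pc (chr11:101367561-101377903) encodes the catalytic subunit of glucose-6-phosphatase, which releases free glucose in the endoplasmic reticulum. It measured 162, 140 and 284 FPKM in Flox and 112, 197 and 262 in HKO. Flox 3 and HKO 3 were the highest and HKO 1 the lowest, a 2.53-fold range that cut across the groups. Means were 195 ± 77.7 and 190 ± 75.0 FPKM (SD, n = 3 each; 4800 to 11710 reads). The log2 fold change of -0.05 (SE 0.377, interval -0.95 to 0.84, limma adjusted p = 0.977) leaves folds from 0.518 to 1.80 inside the interval, the widest of the 9. Without Flox 3 it was 0.25, and without HKO 1 it was 0.29.

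Slc37a4 (chr9:44396852-44402968) encodes the transporter that brings glucose 6-phosphate to the phosphatase. Its level was 50.6, 45.7 and 54.3 FPKM in Flox and 49.5, 38.3 and 70.8 in HKO. HKO 2 was the lowest and HKO 3 the highest, on either side of the 3 Flox libraries. Means were 50.2 ± 4.32 and 52.9 ± 16.5 FPKM (SD, n = 3 each; 1827 to 3751 reads), with a log2 fold change of 0.03 (SE 0.217, interval -0.48 to 0.54, limma adjusted p = 0.975). It was -0.20 without HKO 3 and -0.03 without Flox 2.

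Ppargc1a (chr5:51454250-51567726) encodes PGC-1alpha, a coactivator that fasting signals raise and that joins FOXO1 and HNF4A at gluconeogenic promoters. It was at 1.19, 0.889 and 1.58 FPKM in Flox and 1.09, 1.77 and 1.51 in HKO. HKO 2 was the highest and Flox 2 the lowest, and the groups overlapped. Means were 1.22 ± 0.346 and 1.46 ± 0.342 FPKM (SD, n = 3 each; 87 to 195 reads). The log2 fold change was 0.15 (SE 0.156, interval -0.22 to 0.52, limma adjusted p = 0.780), and it was 0.04 without Flox 2 and 0.26 without Flox 3 or HKO 1.

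Foxo1 (chr3:52268336-52353221) encodes the forkhead factor that insulin signalling inactivates. It measured 2.80, 2.76 and 3.41 FPKM in Flox and 3.22, 3.64 and 4.58 in HKO. HKO 3 was the highest, 2 HKO libraries were above all Flox libraries, and HKO 1 lay below Flox 3. The HKO mean of 3.81 ± 0.697 was 27.5% above the Flox mean of 2.99 ± 0.366 FPKM (SD, n = 3 each; exact permutation p = 0.2; 355 to 736 reads). The log2 fold change was 0.26 (SE 0.133, interval -0.05 to 0.58, limma adjusted p = 0.676), and it was 0.15 without HKO 3. Of its exon bases, 7.8% overlap the antisense gene Gm20402, and the library kit (NEBNext Ultra) does not mark strand, so reads of this stretch cannot be told apart.

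Crtc2 (chr3:90254163-90264125) encodes a coactivator of CREB that glucagon sends to the nucleus by loss of phosphate, a control on the protein that RNA does not show. Its values were the most even of the 9, at 6.93, 6.37 and 6.32 FPKM in Flox and 7.01, 6.72 and 5.93 in HKO. HKO held both the highest and the lowest library. Means were 6.54 ± 0.339 and 6.55 ± 0.559 FPKM (SD, n = 3 each; 387 to 509 reads), and the log2 fold change was 0.00 (SE 0.0983, interval -0.23 to 0.23, limma adjusted p = 0.999). On the log2 scale this interval is the narrowest of the 9, and it stands for folds of 0.852 to 1.17.

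**Figure D3:**
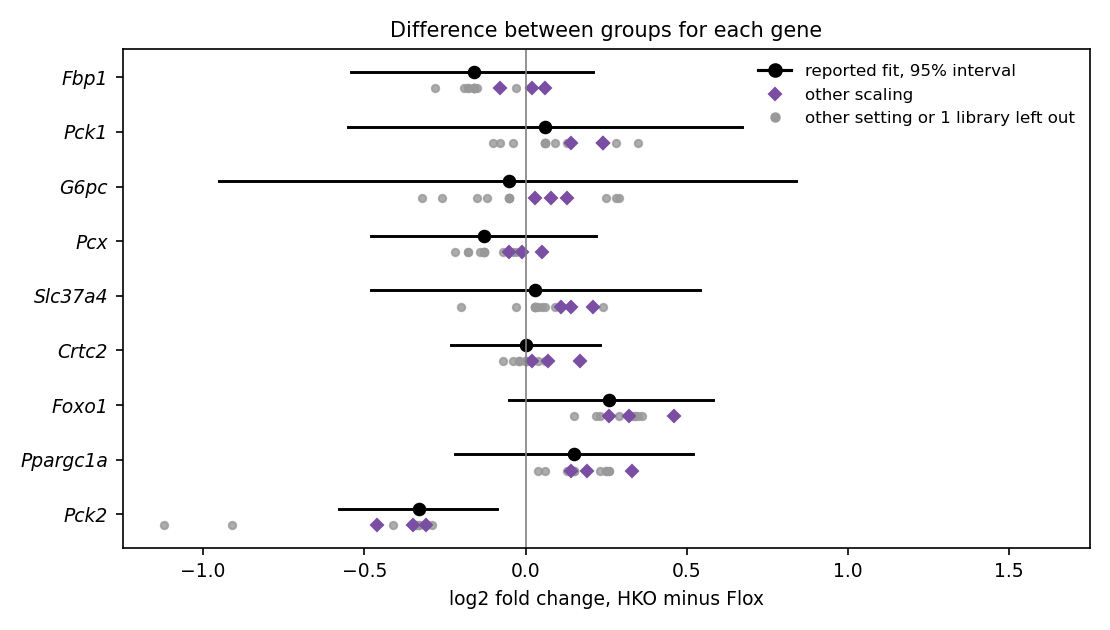
Log2 fold change of HKO against Flox for 9 genes: black, the reported limma fit with its 95% interval (n = 3 per group); purple diamonds, 3 other scalings; grey points, other settings or 1 library left out. The interval of Pck2 alone (-0.58 to -0.09) lies to 1 side of 0, and alternatives of Pck1, G6pc, Fbp1, Pcx and Slc37a4 fall on both sides. Pck2 passed the filter only through its Flox libraries, so its interval is no independent support.

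The genes differed in how much they varied among libraries of the same group. The SD within groups on the log2 scale was 0.58 for G6pc and 0.38 for Pck1, the 96.1 and 90.2 percentile among 5200 genes of at least 5 FPKM on average, whose median was 0.16. Slc37a4 followed with 0.32 (86.1 percentile). Fbp1 and Pcx, both at 0.18, lay near the middle (58 and 56.3 percentile), and Crtc2 at 0.09 was among the least variable (13.5 percentile). Over all 6 libraries, the coefficient of variation was 35.4% for G6pc, 25.4% for Pck1 and 12% for Fbp1.

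Among the 36 pairs of these genes, G6pc and Ppargc1a had a Pearson r of 0.76 (Spearman rho 0.77) over the 6 libraries on log2(FPKM + 1), and Pck1 and Ppargc1a one of 0.74 (rho 0.77). Pck1 and G6pc stood at 0.59 (rho 0.54), below Foxo1 with Ppargc1a at 0.69 (rho 0.77) and Foxo1 with G6pc at 0.65 (rho 0.66). The 2 genes highest in the list of pairs, Fbp1 and Slc37a4, reached 0.77 (rho 0.71), both with HKO 2 lowest and HKO 3 highest. G6pc and Crtc2 ran opposite at -0.71 (rho -0.77). These are descriptions over 6 libraries of 2 groups that share depth and tissue, with no test. Compared with 4903 other genes of at least 5 FPKM, the closest to Pck1 were Ythdf1 (0.986), Mtmr3 (0.979) and Azi2 (0.975), each with its highest value in Flox 3. The closest to G6pc were Washc5 (0.989), Pstpip2 (0.985) and Acss2 (0.978). Acss2, a cytosolic acetyl-CoA synthetase of lipid synthesis, was at 9.66, 9.46 and 20.4 FPKM in Flox and 7.13, 11.5 and 19.7 in HKO, with Flox 3 and HKO 3 highest as for G6pc.

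The pattern of G6pc over libraries went with that of genes raised by feeding. The 9 fed-state genes, mostly of lipid synthesis, summed to 789, 547 and 2230 FPKM in Flox and 365, 466 and 2520 in HKO. Flox 3 and HKO 3 were far above the rest, with HKO 3 the highest, and HKO 1 was the lowest. G6pc was highest in Flox 3, then HKO 3, and also lowest in HKO 1. Pck1 was highest in Flox 3 and not raised in HKO 3. The 9 fasted-state genes summed to 6430, 8180 and 6140 FPKM in Flox and 5650, 4930 and 4700 in HKO, every HKO library below every Flox library. The part of feeding in the values of G6pc and Pck1 was not tested.

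**Figure D4:**
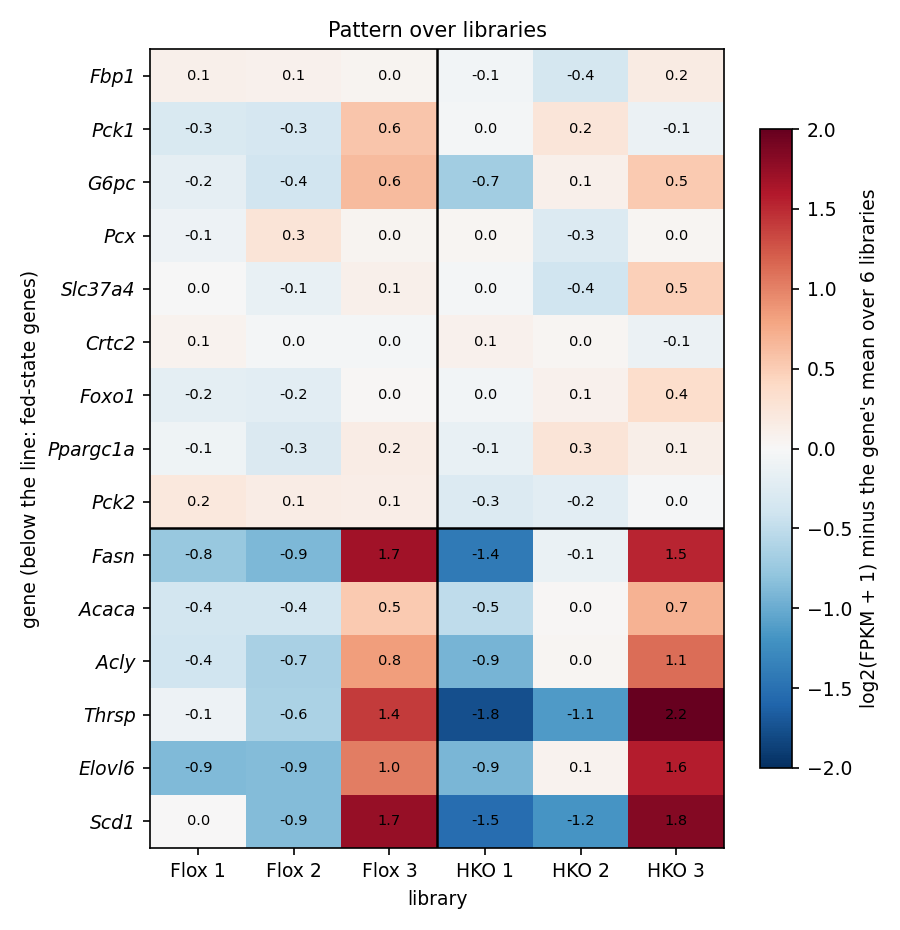
Log2(FPKM + 1) minus each gene's mean over 6 libraries, for the 9 gluconeogenesis genes (above the line) and 6 fed-state genes of lipid synthesis (below it); red is above and blue below the mean. G6pc and most fed-state genes are red in Flox 3 and HKO 3 and blue in HKO 1, so both groups hold libraries of either kind.

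Around these genes, 7 lists of the wider pathway named 104 genes, of which 97 were tested. None passed the adjusted threshold in limma or under any alternative (lowest limma adjusted p = 0.580), and 6 had an unadjusted p under 0.05, which is 6.19% beside 7.62% of all genes. All 6 were lower in HKO: Sik1, Cebpb, Cry2, Mdh1, Pfkfb1 and Pdk2. Over all genes, 539 of the 904 with an unadjusted limma p under 0.05 were lower. In the limma fit of genes of at least 5 FPKM on average, it was 318 of 432. Of the 97, the groups did not overlap for 16 genes (16.5% beside 13.3%), with HKO below for 14 and above for 2 (Creb1 and Hnf4a). The fitted log2 difference was below 0 for 63 genes and above it for 34, with a median log2 fold change of -0.07. Over all genes tested, 51.2% were below 0, with a median of -0.005. Among genes of at least 5 FPKM on average, 59.9% were below 0, with a median of -0.049. The split of the 97 depends on scaling: 35 were lower with TPM and 60 relative to the TPM median of all genes (0.147). Quantile normalization gave 47, and 49 relative to its median, and scaling by assigned reads gave 49 and 60.

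Nearest to gluconeogenic control among these was Sik1, a kinase that cyclic AMP induces and that holds CRTC2 out of the nucleus. Sik1 measured 6.03, 6.14 and 10.2 FPKM in Flox and 1.79, 2.58 and 4.15 in HKO. Every HKO library was below every Flox library. Its log2 fold change was -1.15 (SE 0.271, limma adjusted p = 0.580). The RNA of Crtc2 stood at 0.00, which does not show the control of the CRTC2 protein by this kinase. In the same list of 23 tested glucagon and cyclic AMP genes, the log2 difference was below 0 for 11 and the median was 0.02. With TPM these were 5 and 0.19, or 10 and 0.04 relative to the TPM median of all genes. Creb1, the factor that CRTC2 joins, was at 0.22 (adjusted p = 0.677), Prkar2a, a regulatory subunit of protein kinase A, at 0.29 (adjusted p = 0.667), and Nr4a1, a receptor gene that cyclic AMP induces, at -1.28 (adjusted p = 0.678). The value of Nr4a1 was -0.72 without HKO 1 and -1.87 without Flox 3, and that of Creb1 was 0.13 without HKO 2.

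Cebpb, a factor that binds the Pck1 promoter, was at 115, 162 and 99.7 FPKM in Flox and 65.9, 43.9 and 88.0 in HKO. Here too every HKO library was below every Flox library, with a log2 fold change of -0.95 (SE 0.284, limma adjusted p = 0.648), but 20.7% of its exon bases overlap Tmem189 on the other strand. Cry2, a clock repressor, differed by -0.24 (adjusted p = 0.648), and Creb3l3, a hepatic factor that fasting activates, by -0.31 (adjusted p = 0.678; -0.20 without Flox 2). Hnf4a, the hepatocyte nuclear factor that works with PGC-1alpha, was at 103, 113 and 111 FPKM in Flox and 134, 121 and 117 in HKO, a log2 difference of 0.18 (limma adjusted p = 0.697). Of the 15 other transcriptional regulators, 11 had a log2 difference below 0 (8 with TPM, and 11 relative to the TPM median of all genes). Their median was -0.14, and with TPM it was -0.02, or -0.16 relative to the TPM median of all genes. It was -0.05 without Flox 2 and -0.08 without HKO 1.

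The 16 tested genes of the insulin and FOXO arm had 7 log2 differences below 0 and a median of 0.03. With TPM these were 2 and 0.20, or 6 and 0.06 relative to the TPM median of all genes. The median ran from -0.02 to 0.14 with 1 library left out (without HKO 2 and HKO 1). The smallest p-values of the arm belonged to Pik3r1, Pdpk1 and Irs1. Pik3r1, a regulatory subunit of phosphoinositide 3-kinase, was at 0.38 (adjusted p = 0.651). Pdpk1, the kinase that activates AKT, was at 0.25 (adjusted p = 0.688). Irs1, an insulin receptor substrate whose exons overlap an antisense gene by 30.9%, was at 0.30 (adjusted p = 0.723). Pdk4, which FOXO1 and fasting raise, was at -0.38 (adjusted p = 0.775). Single libraries moved these values: Pdk4 was -0.13 without Flox 2, -0.15 without HKO 1, -0.23 without Flox 3, -0.61 without HKO 3 and -0.76 without Flox 1. Irs1 was 0.12 without Flox 2, 0.19 without HKO 2 and 0.51 without Flox 3, Pik3r1 was 0.24 without HKO 3, and Pdpk1 was 0.16 without HKO 2.

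Among the 23 genes of carbon entry and shuttles, 15 had a log2 difference below 0, with a median of -0.14. With TPM these were 10 and 0.04, or 15 and -0.11 relative to the TPM median of all genes. With quantile normalization they were 11 and 0.01, and 12 genes were lower relative to its median. The median of the list was -0.07 without HKO 2 and -0.24 without HKO 3. Every HKO library was below every Flox library for 6 of the 23, beside 7.21% of all genes. Mdh1, the cytosolic malate dehydrogenase that turns exported malate back into oxaloacetate for PCK1, was at 305, 304 and 279 FPKM in Flox and 210, 218 and 242 in HKO. Its log2 fold change was -0.41 (SE 0.120, limma adjusted p = 0.632). The others with the smallest p were Gpt, which makes pyruvate from alanine (-0.39, adjusted p = 0.651), Gk, which phosphorylates glycerol (-0.22, adjusted p = 0.656), and Ldhb, a lactate dehydrogenase subunit (-0.26, adjusted p = 0.661, uncertain because of a near-identical copy).

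Of the 7 enzymes shared with glycolysis, 6 had a log2 difference below 0 (median -0.17). With TPM it was 3 (median 0.00), or 5 (median -0.14) relative to the TPM median of all genes. Leaving out Flox 2 or HKO 1 gave medians of -0.09 and -0.11, and leaving out HKO 3 gave -0.31. Eno1 was at -0.30, Tpi1 at -0.20 and Pgam1 at -0.17, with adjusted p of 0.689 to 0.755. Eno1 was -0.15 without HKO 2 and -0.53 without HKO 3. These 3 genes and Gapdh have near-identical copies elsewhere in the genome, 57 in the case of Gapdh, so their values are uncertain. G6pc2, Fbp2 and Slc37a2, other isoforms of the terminal steps, did not reach the filter. The 3 others of that list were within 0.08 of 0 on the log2 scale: G6pc3 at -0.04, Slc37a1 at -0.08, and Slc2a2, the glucose exporter GLUT2, at -0.06. All 3 turned positive with TPM, but all 3 stayed below the TPM median of all genes.

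The last list holds 10 genes that carry out or control glucose use, some of which restrain it, such as Pdk2. On the log2 scale all 10 differences were below 0, beside 51.2% of all genes tested and 59.9% of those of at least 5 FPKM on average. With TPM 7 of the 10 were below 0, or 10 relative to the TPM median of all genes. With quantile normalization it was 8, or 9 relative to its median. In FPKM, though, the mean of Pklr, the pyruvate kinase of liver, was 70.6 in Flox and 78.5 in HKO. The median of -0.31 was -0.17 without HKO 2 and -0.50 without HKO 3. The genes summed to 715, 685 and 762 FPKM in Flox and 517, 456 and 881 in HKO, so HKO 3 was above every Flox library. Pfkfb1, the enzyme that sets fructose 2,6-bisphosphate, the inhibitor of FBP1, was at 8.71, 9.76 and 7.15 FPKM in Flox and 3.94, 4.10 and 5.36 in HKO. Its groups did not overlap (log2 fold change -0.80, SE 0.147, limma adjusted p = 0.580). Pdk2, which restrains pyruvate dehydrogenase, measured 40.4, 40.0 and 38.0 FPKM in Flox and 28.5, 27.4 and 34.2 in HKO (-0.39, adjusted p = 0.648). Mlxipl, the carbohydrate response factor ChREBP, was at -0.24 (adjusted p = 0.667).

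**Figure D5:**
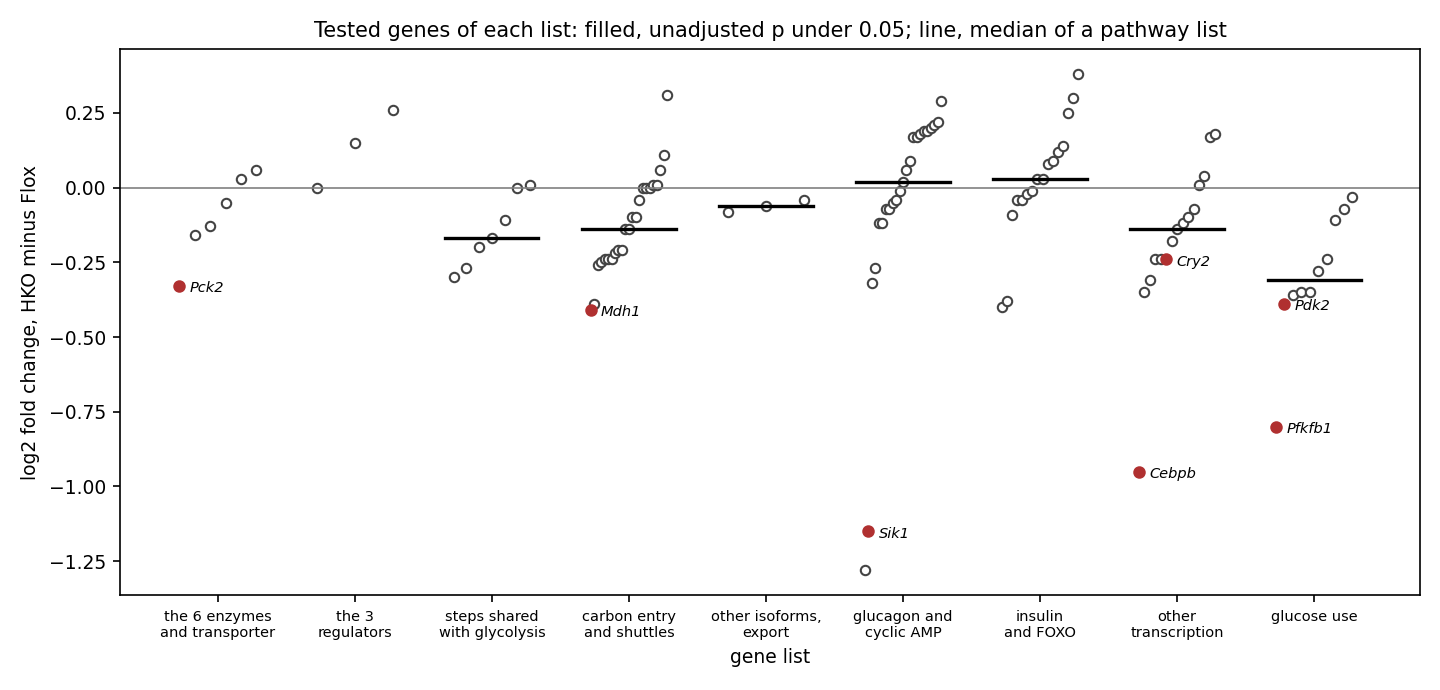
Log2 fold change of HKO against Flox (vertical axis) for the tested genes of each list (horizontal axis); filled red points, named, had an unadjusted limma p under 0.05, and black lines are medians of the 7 pathway lists. Pck2, which passed the filter only through its Flox libraries, is the only filled point of the 9 gluconeogenesis genes. The other 6 filled points all lie below 0, beside 539 of the 904 genes with such a p over all genes tested. The glucose use list has its median at -0.31.

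Gluconeogenesis is strongest in periportal hepatocytes, so zonation markers were read beside the genes. The 10 periportal markers had a median log2 fold change of -0.01, and their mean centred log2 level was 0.16, -0.05 and 0.03 in Flox and -0.31, -0.03 and 0.19 in HKO. HKO 1 was the lowest on this score and HKO 3 the highest. G6pc was also lowest in HKO 1, but highest in Flox 3. Fbp1, Slc37a4 and Foxo1 were also highest in HKO 3, but Fbp1 and Slc37a4 were lowest in HKO 2 and Foxo1 in Flox 2. The markers with the smallest p were Ass1 (-0.55, adjusted p = 0.676) and Aldh1b1 (-0.40, adjusted p = 0.685). Pericentral markers had 8 of 10 log2 differences below 0 and a median of -0.15. The part of zonation in the gluconeogenesis values was not tested.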

How the data were processed

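RNA of 6 liver libraries was measured by RNA-seq; the labels give 3 as Flox and 3 as HKO. The authors deposited FPKM, 1 value per gene and library, so libraries were not pooled. The deposited table also gives a gene length in bases. The submitters' processing notes name the builds GRCm38 and mm10. Aligner, counter and annotation release: not given in the sources used here; 99.8% of gene identifiers occur in GENCODE M21.

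FPKM times length gave whole reads within 0.02 reads for 100% of values. The library size behind the FPKM was 0.9343 to 1.0551 times the assigned reads and proportional to a median-ratio size factor, so the deposited values already level the typical gene between libraries. At 1 kb, 1 FPKM stood for 14.85 to 18.54 reads, and counting error limits only the scarce genes.

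Tests used log2(FPKM + 1) in limma 3.58.1 (R 4.3.3, statmod 1.5.0; trend and robust, two-sided) on the 11856 genes that reached 0.5 FPKM in 3 or more libraries, with Benjamini-Hochberg adjustment over all of them and a threshold of 0.05. Fold changes are HKO minus Flox on that scale, which understates low genes. Single genes also had an exact two-sided permutation test of mean FPKM (scipy 1.17.1), which cannot give less than 0.1. The fit was tested on simulated data. Copies were sought with blastn 2.17.0, and promoters are from RefSeq (GRCm38.p6). Alternatives changed the pseudocount, filter, scaling, test, weights, block or library set, 1 at a time.

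The genes and lists were chosen with earlier results of these data known. Named are the 9 genes, G3bp1, up to 4 genes of smallest p per pathway list (up to 2 per marker or feeding list), and the 3 genes most like Pck1 and G6pc; Gm12411, Mup13, Gapdh, Gm20402, Tmem189, Pfkl, Pklr and the isoforms under the filter were named beside this rule. Some genes that the rule covers are not reported here.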

Additional observations from a re-analysis of the deposited data

How the results depend on the processing

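No gluconeogenesis gene passed the threshold under any of the alternatives run. Of all genes tested, 1 passed in the reported analysis. With no filter 0 passed (1199 at an unadjusted p under 0.05 in limma), with a mean FPKM of at least 5 it was 2, with voom on recovered reads 3 and with array weights 3 (with both, Gm12411, Mup13 and G3bp1). Leaving out 1 library gave 0 to 13: 13 without HKO 1, 1 without Flox 3, and 0 without any of the other 4 (447 to 754 at an unadjusted p under 0.05 in limma). The cause was not tested. The direction of several small differences turned. For G6pc the log2 fold change became 0.13 with TPM, 0.08 after quantile normalization, 0.03 on assigned reads and 0.28 with array weights; with 1 library left out it ran from -0.32 (without HKO 3) to 0.29 (without HKO 1), and was 0.25 without Flox 3. For Fbp1 it became 0.02 with TPM and 0.06 with quantile normalization, and for Pcx 0.05 with TPM. For Pck1 it became -0.08, -0.10 and -0.04 without Flox 1, Flox 2 and HKO 2, up to 0.35 without Flox 3. For Slc37a4 it became -0.03 without Flox 2 and -0.20 without HKO 3, up to 0.24 without HKO 2. Pck2 (-1.12 to -0.29), Ppargc1a (0.04 to 0.33) and Foxo1 (0.15 to 0.46) kept their sign throughout, and Crtc2, at 0.00, ran from -0.07 to 0.17. Of these, Pck2 passed the filter only through its Flox libraries. Among named pathway genes, G6pc3 became 0.10 with TPM, 0.02 on assigned reads and -0.09 to 0.01 with 1 library left out (0.01 without Flox 2). Slc37a1 became 0.02 with TPM, 0.03 without Flox 2 and 0.09 without HKO 2, and was -0.27 without HKO 1. Slc2a2 became 0.12 with TPM, 0.08 after quantile normalization, 0.02 on assigned reads, 0.08 with array weights, 0.05 without Flox 3 and 0.08 without HKO 1, and was -0.26 without HKO 3. Pdk4 became 0.18 with array weights. Low depth limits Pck2 most, at 30 to 84 reads per library.

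With the replicate number as a block, 0 genes passed in limma (784 at an unadjusted p under 0.05), and 0 of the 9. Deviations from the group means correlated at 0.021, 0.015 and 0.07 between libraries of the same number, and at -0.1 to 0.074 between libraries of different numbers. These values cannot tell whether libraries of the same number shared a litter or a day.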

Other observations

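Ratios between enzymes that run in opposite directions, or that share a step, were formed within each library; these 4 ratios were chosen after the values were seen. Pck1 to Pck2 FPKM stood at 565, 620 and 1180 in Flox and at 2200, 2210 and 1020 in HKO. The ratio was highest in HKO 1 and HKO 2, while HKO 3 lay among the Flox values (mean log2 difference 1.2, exact two-sided permutation p = 0.2, adjusted p = 0.8 over the 4 ratios).

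Fbp1 to Pfkl, the opposing pair at fructose 6-phosphate, ran from 100 to 145 over the 6 libraries, a narrow range (log2 difference -0.08, exact permutation p = 0.8). Pck1 to Pklr, the opposing pair at phosphoenolpyruvate, was 6.33, 7.36 and 7.43 in Flox and spread to 11.6, 14.9 and 2.91 in HKO. HKO libraries lay on both sides of all Flox libraries (log2 difference 0.18, exact permutation p = 1). G6pc to Slc37a4, enzyme and transporter of the same last step, ran from 2.27 to 5.23 (log2 difference -0.08, exact permutation p = 0.9).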
